A study of Mus musculus with 8 samples.

Results

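Polr1c is a subunit that RNA polymerase I and RNA polymerase III share, and the data described here are the positions at which an antibody against it enriched chromatin from mouse hippocampal neural progenitor cells. The members were the narrow peaks of the 2 Polr1c immunoprecipitations on chromosomes 1 to 19, 760 of 826 peaks in repeat 1 and 35324 of 35927 in repeat 2, out of 1719263 peaks in the 6 peak lists of the series. They were split by coordinates alone. A peak was in both repeats when it shared at least 1 bp with a peak of the other list. This put 308 peaks of repeat 1 and 316 of repeat 2 in both, which joined into 300 regions, and left 452 peaks in repeat 1 only and 35008 in repeat 2 only.

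The series holds 8 samples: chromatin immunoprecipitation of Mgea5, Panx2 and Polr1c and an input, each as repeats 1 and 2, made to find proteins bound at the genes of the microRNA miR-9. All came from primary hippocampal neural progenitors of male C57BL/6 mice, grown in culture with B27 supplement and fixed with formaldehyde. The labels give no age, genetic change or drug, and nothing in them says that the repeats were separate cultures, so a difference between repeats may be technical. The run directories in the peak names show that repeat 1 and repeat 2 of Polr1c were called in different runs, so repeat and calling run cannot be told apart. The number of reads is not given in the sources used here.

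RNA polymerase I makes the large ribosomal RNA precursor. RNA polymerase III makes transfer RNAs (tRNAs), 5S ribosomal RNA and other short RNAs, mostly from promoters that lie inside the transcribed gene. At a tRNA gene the factor TFIIIC binds an A box and a B box within the gene and places TFIIIB, which recruits the polymerase. Protein-coding genes are transcribed by RNA polymerase II, of which Polr1c is not a subunit.

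The sequences of 4 tRNA genes that lie inside RefSeq promoter windows (GRCm38.p6, the coordinates of mm10) show the kind of site that was called and the kind that was not. Capitals mark exact matches to an A box, searched as TGGC, any 2 letters, AGT, any letter and G, and to a B box, searched as GTTCNANNC. n-TTagt9 (chr7:35234770-35234843, minus strand) had a summit in both repeats, n-TRtcg5 (chr7:79466419-79466491, plus strand) likewise, n-TAagc16 (chr13:21222586-21222657, plus strand) in repeat 2 only, and n-TVcac9 (chr13:23446142-23446214, minus strand) in neither. For n-TRtcg5, which lies within the annotated span of Polg, 30 bases around the B box are given.
n-TTagt9: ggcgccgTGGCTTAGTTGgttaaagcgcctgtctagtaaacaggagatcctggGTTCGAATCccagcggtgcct
n-TRtcg5: aagattgcagGTTCGAGTCctgccgcggtc
n-TAagc16: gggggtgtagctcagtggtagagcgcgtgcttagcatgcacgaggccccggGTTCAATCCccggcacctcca
n-TVcac9: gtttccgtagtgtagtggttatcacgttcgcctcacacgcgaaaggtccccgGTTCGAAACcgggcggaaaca
The B box letters are present in all 4, the uncalled gene included. The exact A box letters searched were matched only in n-TTagt9, which does not say that the other genes lack an A box. Of all 31364 promoter windows, 9.30% hold the B box letters and 1.30% the A box letters on either strand.

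The repeats overlapped most where enrichment was highest. Fold enrichment is the authors' ratio of immunoprecipitate to background at the summit, and it ranks peaks within a list. The 25 peaks with the highest fold in repeat 1 were all in both, as were 98 of the highest 100. Over the whole list 40.5% of repeat 1 peaks were in both (exact 95% binomial interval 37.0% to 44.1%, which covers counting error only). Among the 212 repeat 1 peaks with a deposited −log10 q of at least 2, where q is the caller's p-value corrected for the number of tests, 200 (94.3%) overlapped a repeat 2 peak. In the longer list of repeat 2, 0.895% of all peaks and 253 of 1284 (19.7%) with that q were in both, and of its 25 peaks with the highest fold 15 were in both.

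Peaks in 1 repeat only were mostly at the low end of each list. Repeat 1 peaks in both had a median fold of 4.5 and those in repeat 1 only 2.76, a value that 141 of the 452 shared, and 431 of the 452 had a −log10 q of 0. Repeat 2 peaks in both had a median fold of 3.53 and those in repeat 2 only 2.75, but 1031 of the latter reached the q of 2 and the highest had a fold of 20.5. The smallest overlaps that counted as shared were 12, 28 and 37 bp, and the nearest misses were gaps of 4, 7 and 82 bp. The median gap from a repeat 1 only peak to the nearest repeat 2 peak was 19983.5 bp, and 23 of the 452 lay within 1000 bp of one.

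The summit, the point of highest pileup in a peak, fell close together in both repeats for most regions. The median distance between the summits was 28.5 bp over the 300 regions, and 201 regions (67.0%) had summits within 50 bp. The 90th percentile was 255.3 bp and the largest distance 2375 bp. Over the 279 regions made of 1 peak from each repeat the median was 26 bp and the largest distance 1096 bp. Eps15 and Usp3 had summits 2 bp apart, and a region inside Tjp3 had summits 1 bp apart.

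Each region was given the first location that applied to any of its summits: within 200 bp of a tRNA gene, within 200 bp of another small RNA gene, within 1000 bp of an end of a protein-coding gene, inside a protein-coding gene, within 200 bp of a long non-coding RNA or pseudogene, or no gene. Of the 300 regions, 84 (28.0%) were at tRNA genes, 11 at other small RNA genes, 76 (25.3%) at ends of protein-coding genes, 45 inside protein-coding genes, 21 at long non-coding RNAs or pseudogenes and 63 at none of these. At 19 of the 84 tRNA regions a summit was also within 1000 bp of an end of a protein-coding gene. The classes of single-repeat peaks had a different make-up. tRNA genes held 3.76% of repeat 1 only peaks and 0.134% of repeat 2 only peaks, and most of the rest lay inside protein-coding genes (36.3% and 47.9%) or at no gene (47.6% and 34.4%). No chance expectation was computed for these shares.

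**Figure D1:**
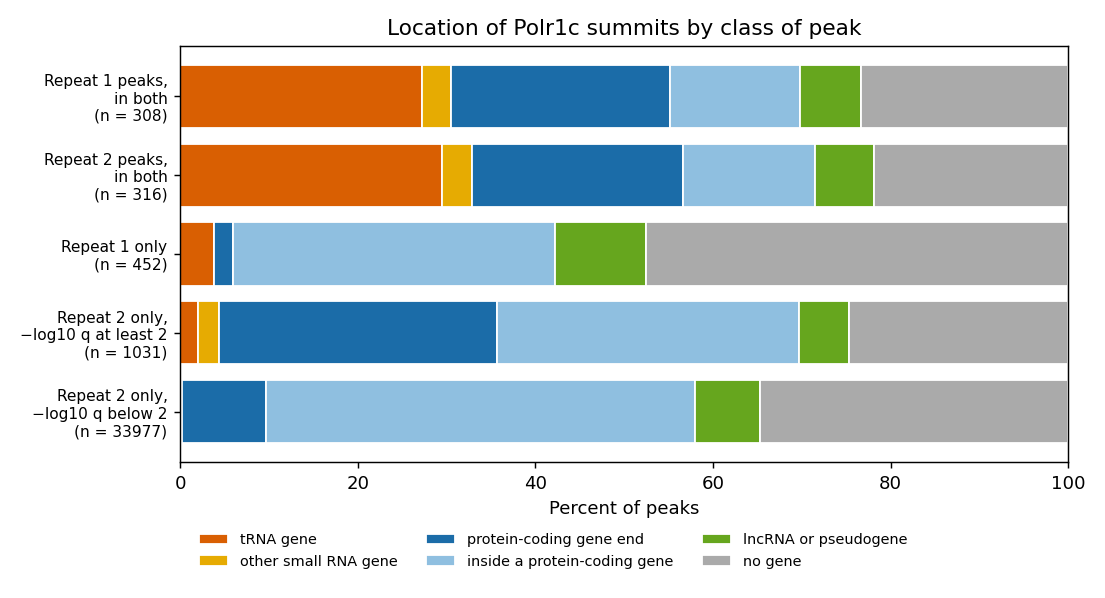
Percent of Polr1c peaks (x axis) by location of the summit (colours) in 5 classes of peak (y axis, with the number of peaks). tRNA genes fill 27.3% of the repeat 1 peaks and 29.4% of the repeat 2 peaks in both, against 3.76% in repeat 1 only, and protein-coding gene ends fill 31.3% of the repeat 2 only peaks with a −log10 q of at least 2.

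tRNA genes and protein-coding gene ends ranked differently in the 2 lists. Regions at tRNA genes had median folds of 5.66 in repeat 1 and 3.69 in repeat 2, and regions at protein-coding gene ends had medians of 6.11 and 7.86. Among the 300 regions ranked by fold, tRNA genes held 40 of the top 100 places in repeat 1 and 15 in repeat 2, while protein-coding gene ends held 39 and 59. The folds of the 2 repeats had a Spearman correlation of 0.68 across the 76 regions at protein-coding gene ends and of -0.03 across the 84 at tRNA genes, a description across regions that share the same 2 libraries. By the geometric mean of the folds, the top 50 regions held 38 protein-coding gene ends and 0 tRNA genes.

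**Figure D2:**
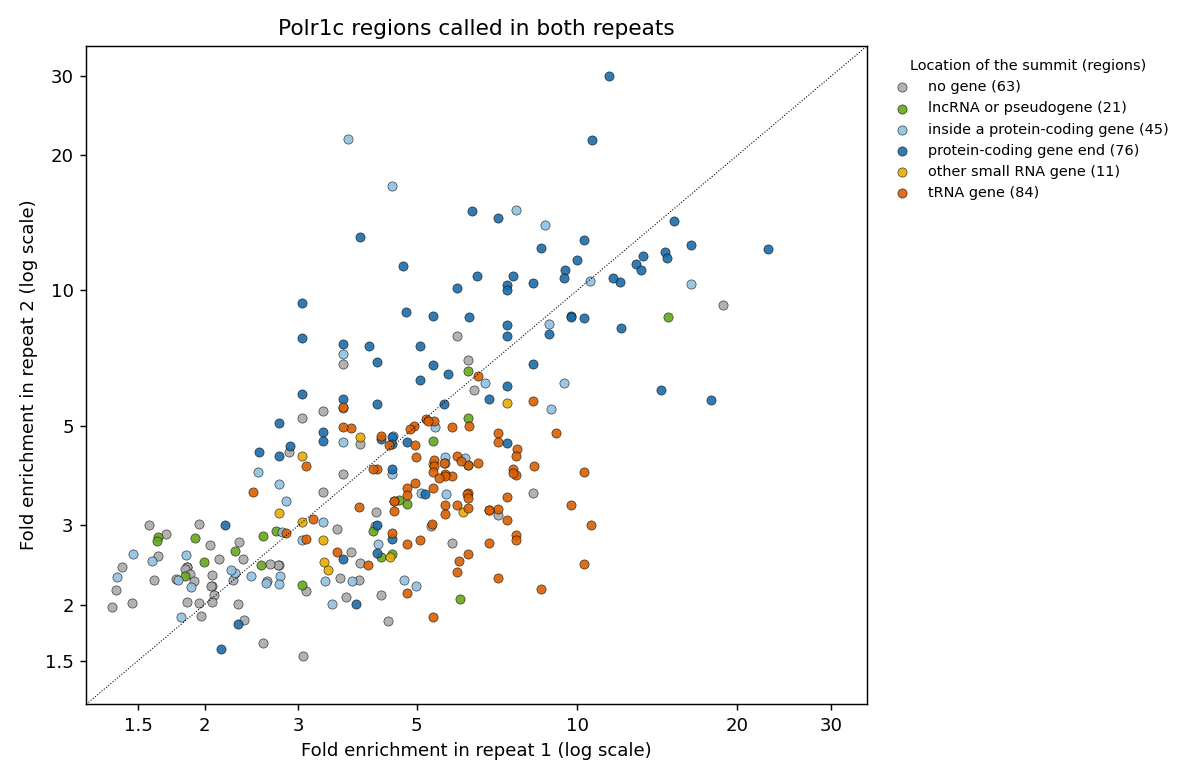
Fold enrichment of the 300 regions in both, repeat 1 (x axis) against repeat 2 (y axis), both on log scales, 1 point a region, coloured by location, with the line of equal fold dotted. Protein-coding gene ends reach 22.8 in repeat 1 and 30.1 in repeat 2, whereas tRNA genes stay at or below 10.6 and 6.45.

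The tRNA genes were marked more often than genes at large. Of 391 tRNA genes on these chromosomes, 82 (21.0%) had a summit within 200 bp in both repeats, against 0.848% of the 47038 genes of all classes, although genes of all classes are much longer (median 6275 bp against 73 bp for tRNA genes). In repeat 1, 105 tRNA genes were marked (26.9%, beside 1.06% of all genes), and in repeat 2, 142 (36.3%, beside 25.4% of all genes). A further 23 tRNA genes had a summit within 200 bp in repeat 1 only, 60 in repeat 2 only, and 226 in neither. These counts go by summit and are not the peak classes above. The repeat 1 peak at n-TEctc10, for example, overlapped a repeat 2 peak whose summit lay farther away. Many tRNA genes have near-identical copies, and how reads with several mapping positions were placed is not given in the sources used here, so the call at a single copy is uncertain.

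Summits sat within the tRNA gene itself. Of the 82 genes marked in both repeats, the highest summit lay inside the gene body in 65 for repeat 1 and in 63 for repeat 2. The median distance from the centre of the gene was 25.75 bp in repeat 1 and 18.25 bp in repeat 2. At n-TTagt9, shown above, the folds were 5.66 and 3.87. At n-TRtcg5 they were 4.79 and 2.73.

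The 5 tRNA genes with the highest geometric mean fold carry different amino acids. The leucine gene n-TLcag10 had folds of 8.27 in repeat 1 and 5.67 in repeat 2. The alanine gene n-TAtgc9 had 9.14 and 4.80, and the lysine gene n-TKctt17 had 6.53 and 6.45. The proline gene n-TPcgg2 had 10.3 and 3.94, and the arginine gene n-TRccg1 had 7.11 and 4.80. Of these, n-TKctt17 kept nearly the same fold in both lists, and n-TPcgg2 had the widest spread.

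The methionine gene n-TMcat11, beside Ilf2, had the lowest ratio of repeat 2 to repeat 1 among all 300 regions, with a fold of 10.3 in repeat 1 and 2.46 in repeat 2. The next were the asparagine gene n-TNgtt6, with 8.56 and 2.17, and the isoleucine gene n-TIaat4, with 10.6 and 3.0. All 3 of the regions most weighted to repeat 1 were therefore tRNA genes. In all, 74 of the 84 tRNA regions had the higher fold in repeat 1, against 32 of the 76 at protein-coding gene ends.

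By amino acid, the share of genes marked in both repeats ran from 7 of 15 for proline, 9 of 23 for arginine and 5 of 13 for asparagine down to 1 of 21 for valine, 2 of 56 for cysteine, and 0 of 15 for glutamine and 0 of 8 for tryptophan. For glutamine 1 gene had a summit in repeat 1 only and 2 in repeat 2 only, and for tryptophan 1 gene had a summit in repeat 1 only. The cysteine genes are concentrated on chromosome 6, where 47 of the 48 cysteine genes had a summit in neither repeat. Chromosome 13, with 105 tRNA genes, had 20 in both, and chromosome 6, with 53, had 1. No test was made between amino acids.

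**Figure D3:**
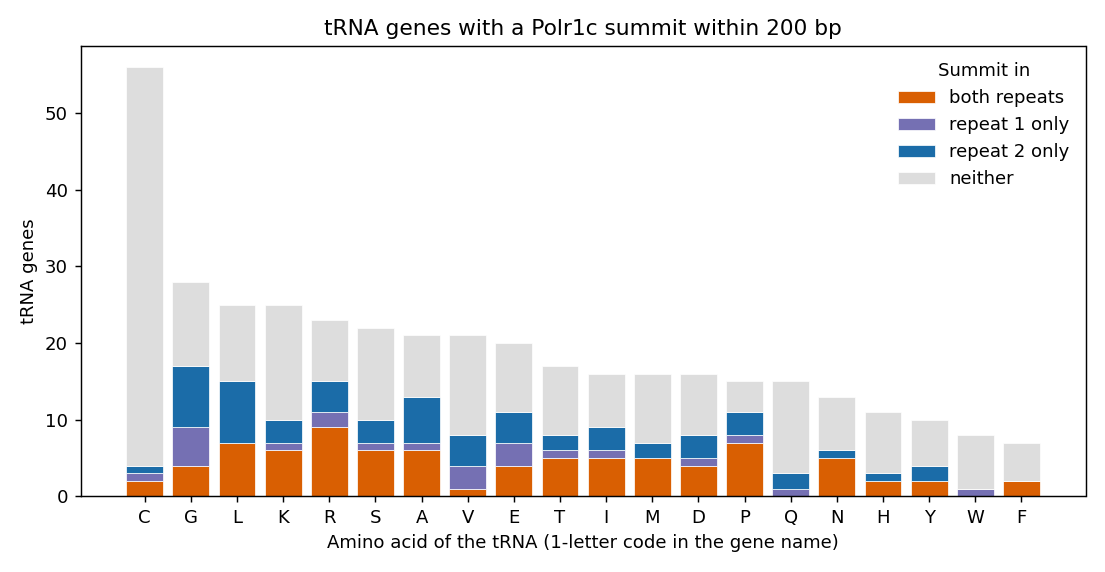
Number of tRNA genes (y axis) by amino acid (x axis, the 1-letter code in the gene name), split by the repeats in which a Polr1c summit lay within 200 bp. Marked genes are spread over most amino acids, with 9 of 23 arginine genes in both repeats, while 52 of 56 cysteine genes have no summit; 6 genes whose names carry no amino acid are left out.

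tRNA genes also led the peaks found in repeat 1 only. The highest was at the glycine gene n-TGccc7 beside Mettl26, with a fold of 9.43 and a −log10 q of 13.1, followed by the arginine gene n-TRcct1 beside Fmc1 (7.66), the threonine gene n-TTtgt4 (5.66), the aspartate gene n-TDgtc16 beside Tmpo (5.49) and the tryptophan gene n-TWcca5 (5.37). The sixth, near an end of Sec24d, had a fold of 5.37. Of the 12 repeat 1 only peaks with a −log10 q of at least 2, 9 were at tRNA genes. None of these had an overlapping peak among the 35324 of repeat 2.

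Other short RNA genes were marked in part. Of 13 named singly, RNA polymerase III genes and the telomerase RNA gene Terc, 11 are in the gene table, 3 had a summit in both repeats and 2 in repeat 2 only, beside 0.848% of all genes in both and 25.4% in repeat 2. Vaultrc5, a vault RNA gene, had folds of 7.40 in repeat 1 and 5.61 in repeat 2. The genes of 7SL RNA, the RNA of the signal recognition particle, had 4.46 and 2.56 at Rn7s2 and 3.42 and 2.38 at Rn7s1. Rmrp, the RNA of the mitochondrial RNA processing ribonuclease, had a fold of 3.06 in repeat 2 and no peak in repeat 1, and Rn7sk, the 7SK RNA gene, had 2.36 in repeat 2 alone. No summit lay within 200 bp of Rpph1, Rny1, Rny3, Bc1, Rnu6 or Terc in either repeat. Terc, the telomerase RNA, is made by RNA polymerase II.

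The block of 5S ribosomal RNA genes on chromosome 8 was marked almost wholly in repeat 2. Of its 48 annotated genes between 123538784 and 123622046, 4 had summits in both repeats, 34 in repeat 2 only and 10 in neither, beside 0.848% of all genes in both and 25.4% in repeat 2. Folds were 2.76 to 3.92 at the 4 genes in repeat 1, each with a −log10 q of 0, and 2.04 to 5.07 with a median of 3.21 at the 38 genes in repeat 2. The genes follow each other at a median spacing of 1698 bp and are near copies, so the call at a single copy is uncertain.

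A second array lay at Rn4.5s on chromosome 6, the gene of a small RNA of rodents listed among ribosomal RNAs. The gene had folds of 6.11 and 3.22, and 16 more shared regions followed it on the same chromosome up to 47773207. Folds over the 17 regions were 2.28 to 6.11 in repeat 1 and 1.53 to 3.55 in repeat 2, and 13 of the 17 had a −log10 q of at least 2 in both lists. Of the 16 gaps between neighbouring repeat 2 summits, 9 were 4174 to 4366 bp (median 4324 bp), and the widest was 53616 bp. The gene table lists Rn4.5s once, so the other regions had no annotated small RNA gene and were counted under other locations. Of the 9 regions before the widest gap, 6 were counted inside a protein-coding gene and 2 at no gene. Of the 8 after it, 6 were counted at no gene and 2 at long non-coding RNAs or pseudogenes.

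**Figure D4:**
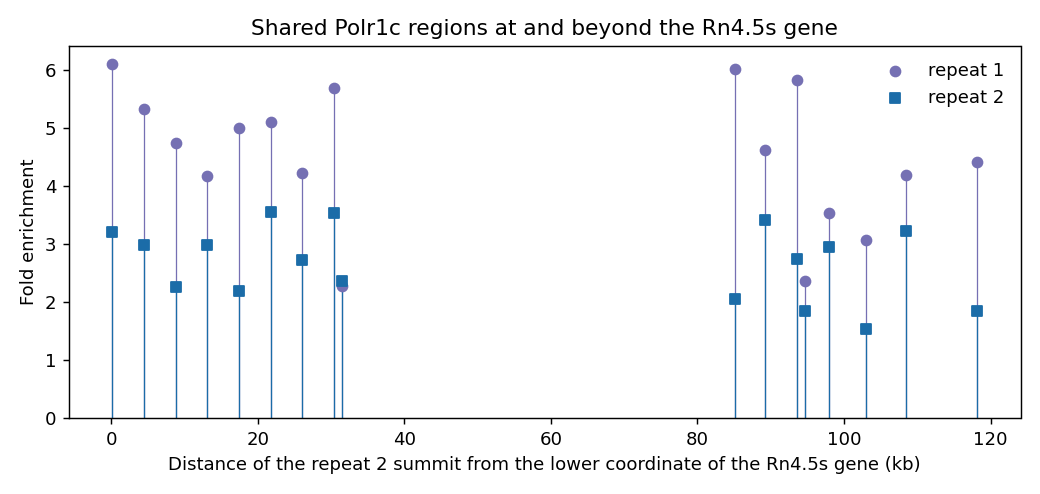
Fold enrichment (y axis) of the 17 shared regions at and beyond Rn4.5s against the distance of the repeat 2 summit from the lower coordinate of the gene (x axis, kb), with circles for repeat 1 and squares for repeat 2. The first 8 regions are evenly spaced, and after a gap of 53616 bp a second stretch follows with less even spacing.

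Further small RNA genes with a summit in both repeats were the small nuclear RNA gene Gm25541, with folds of 5.37 and 4.11, and the small nucleolar RNA gene LOC115486763, with 3.34 and 2.49. By class, 1 of 931 small nuclear RNA genes, 1 of 1286 small nucleolar RNA genes and 2 of 1136 microRNA genes were marked in both repeats, all below the 0.848% of all genes. Median lengths were 107, 130 and 80 bp in these classes and 6275 bp over all genes. A longer gene gives a summit more room, so these shares do not compare like targets. The 3 genes of miR-9, the subject of the series, had no Polr1c summit within 1000 bp in either repeat. The nearest were 4.53 kb and 4.51 kb from Mir9-3 in repeats 1 and 2, in a shared region at Mir9-3hg with folds of 4.5 and 2.59 and −log10 q of 1.44 and 0.206. For Mir9-1 the nearest summits were 1179 kb and 24.6 kb away, and for Mir9-2 739.2 kb and 8.98 kb.

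Some shared regions lay in runs, of which the longest had no gene. Regions within 20000 bp of each other formed 9 runs of at least 4, which held 67 of the 300 regions. The longest run, 22 regions between 3000017 and 3038292 at the start of chromosome 9, had folds of only 1.61 to 2.66 in repeat 1 and 1.89 to 2.71 in repeat 2. Its −log10 q in repeat 1 was 54.7 to 475.7, so a low ratio went with a very high significance in the caller's terms. In repeat 2 the −log10 q was 7.43 to 19.97. How reads with several mapping positions were placed is not given, and its part in this run was not tested. This run makes up 22 of the 63 regions at no gene.

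Among protein-coding genes, 108 of 20661 had a summit within 1000 bp of an end in both repeats (0.523%), 0.595% in repeat 1 and 17.4% in repeat 2, or 2.25% in repeat 2 when its peaks had a −log10 q of at least 2. Such counts, here and for the gene lists below, go by gene, and the summits of the 2 repeats need not lie in overlapping peaks. At Lnpep, for example, the highest repeat 2 peak near an end (fold 6.24) overlapped no repeat 1 peak. The highest shared region was at Eps15, an adaptor of clathrin-mediated endocytosis, with a fold of 11.5 in repeat 1 and 30.1 in repeat 2. Cenpu, a kinetochore protein, had 22.8 and 12.4, the highest fold of repeat 1. Smarce1, a subunit of SWI/SNF chromatin remodellers, had 10.7 and 21.6, and Ints10, of the Integrator complex that processes small nuclear RNAs, had 15.2 and 14.3. All 4 were among the 25 highest peaks of each list.

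The next regions by geometric mean fold were at genes of varied function. Timm22, a channel of the mitochondrial inner membrane, had folds of 16.4 and 12.6, and Armc8, of a ubiquitin ligase complex, had 14.7 and 12.2. The shared region between Harbi1 and the autophagy gene Atg13 had 14.7 and 11.8. Kansl3, of a histone acetyltransferase complex, had 13.3 and 11.9, Setd1a, a histone methyltransferase, had 12.9 and 11.5, and the deubiquitinase gene Usp3 had 13.2 and 11.1. The 2 other regions of the top 12 were inside Tjp3, a tight junction gene, with 16.4 and 10.3, and at no gene on chromosome 1 (86487186 to 86487814), with 18.8 and 9.30.

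The 3 regions most weighted to repeat 2 were inside the potassium channel gene Kcnj4, with folds of 3.72 in repeat 1 and 21.8 in repeat 2, inside Arrdc3, with 4.5 and 17.1, and near an end of Prickle1, with 3.92 and 13.1. Each had a −log10 q under 2 in repeat 1. None was at a tRNA gene.

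Most shared peaks near protein-coding genes lay just upstream of a start. A strand and start were known for 16456 of the 20661 protein-coding genes, which leaves out chromosome 18. Peaks of every location were counted, those at tRNA genes included. Of the 84 shared tRNA regions, 19 had a summit within 1000 bp of an end of a protein-coding gene. The part of tRNA genes in the upstream shares was not separated. Of 71 repeat 2 peaks in both with a summit within 1000 bp of such a start, 57 (80.3%) were upstream and the median position was -113 bp. In repeat 1, 56 of 71 were upstream, with a median of -130 bp. Of the 294 repeat 2 only peaks with a −log10 q of at least 2, 46.9% were upstream and the median was 21.0 bp downstream, and of the 2277 with a lower q 28.0% were upstream and the median was 199 bp downstream. By gene ends, the share at a 5′ end was 91.8% for peaks in both, 93.6% for repeat 2 only peaks with the higher q and 73.3% for the rest: 67 repeat 2 peaks in both were at a 5′ end and 6 at a 3′ end only, against 249 and 17 for repeat 2 only peaks with a −log10 q of at least 2 and 1903 and 692 for those with a lower q.

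**Figure D5:**
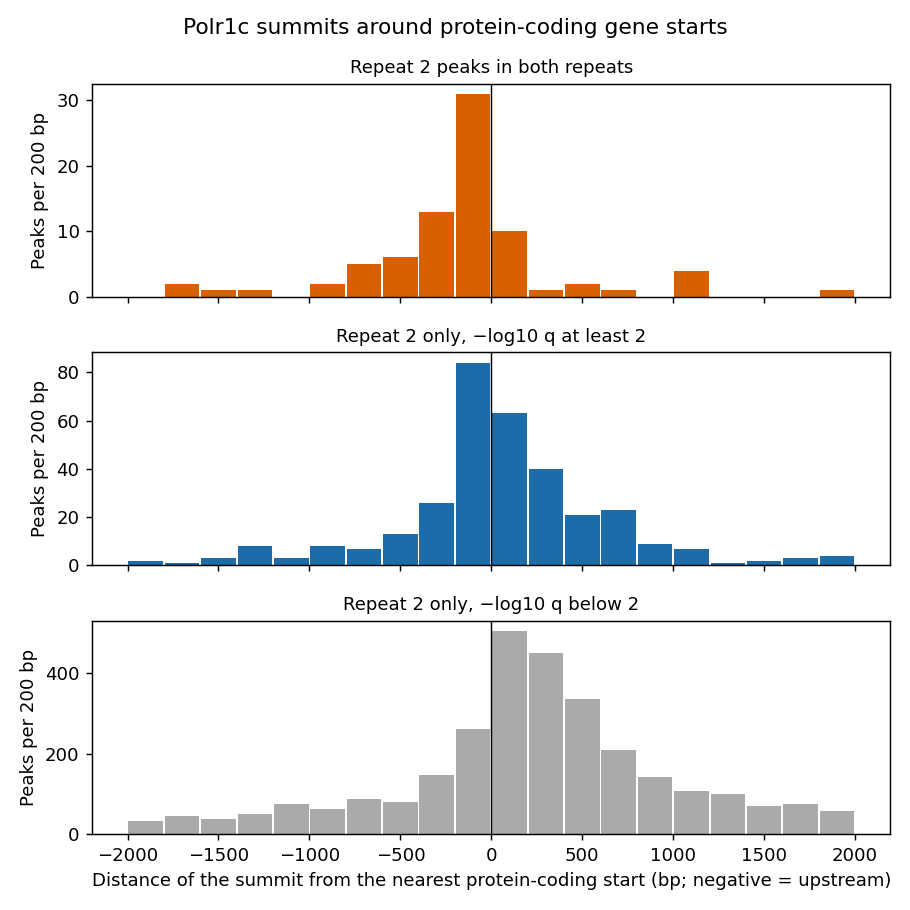
Number of repeat 2 peaks per 200 bp (y axis) by distance of the summit from the nearest protein-coding start (x axis, bp, negative upstream), for peaks in both repeats and for repeat 2 only peaks on either side of a −log10 q of 2. Peaks in both are centred upstream of the start (median -113 bp), and low-q peaks downstream of it (median 199 bp). Peaks at tRNA genes are included.

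The sequence at 3 of the highest shared promoters is given because their summits lay before the annotated start and nearly coincided between repeats (16, 11 and 12 bp apart). RefSeq sequence of GRCm38.p6 is shown in the direction of transcription, up to 120 bases around the repeat 1 summit and ending before the gene, with the 11 bases centred on that summit in capitals. The windows are Cenpu (chr8:46551843-46551962, plus strand), Harbi1 (chr2:91710703-91710822, plus strand) and Kansl3 (chr1:36369194-36369292, minus strand).
Cenpu: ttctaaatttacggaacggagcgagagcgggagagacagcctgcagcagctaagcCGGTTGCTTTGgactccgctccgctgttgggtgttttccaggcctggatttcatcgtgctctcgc
Harbi1: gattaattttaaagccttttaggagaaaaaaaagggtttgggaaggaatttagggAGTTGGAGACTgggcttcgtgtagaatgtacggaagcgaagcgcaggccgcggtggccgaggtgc
Kansl3: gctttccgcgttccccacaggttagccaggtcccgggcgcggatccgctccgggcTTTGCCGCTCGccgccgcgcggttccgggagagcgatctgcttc
None of these 3 stretches holds the letters of the A box, the B box, CCGGAAG (the ETS core), GGGCGG (SP family) or CCAAT on either strand. The same holds for the palindrome TCTCG followed by CGAGA, the NRF1 motif GCGCAT followed by GCGC, and the YY1 motif AAGATG followed by GCGG. No match says only that these letters are not in the window.

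Promoter windows, from 250 bp before to 50 bp after a start, that held a shared summit were compared with all windows by the share that matched each motif. The 52 windows with a summit of a region in both had CCGGAAG in 21.2% and GGGCGG in 57.7%, against 9.0% and 35.9% of all 31364 windows. These 52 windows come from 44 separate sites, so some sites, such as that of Harbi1 and Atg13, count more than once. CCAAT was in 40.4% against 37.3%, the NRF1 motif in 5.77% (3 windows) against 0.963%, and the palindrome and the YY1 motif in none, against 0.462% and 0.823%. Median GC content was 58.8% in the 52 windows and 53.0% in all. In the 144 windows with a repeat 2 only summit of −log10 q at least 2, CCGGAAG was in 17.4%, GGGCGG in 79.2% and CCAAT in 52.8%, and median GC was 66.7%. In the 560 windows with a repeat 2 only summit of lower q, CCGGAAG was in 11.4%, GGGCGG in 65.0% and CCAAT in 30.9%, with a median GC of 65.7%. The part of base composition in these shares was not tested.

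Some words outside the motif list recurred within 60 bases of the shared summits, the range that was searched. They were found by counting all 8-letter words within 60 bases of the summit at 44 separate sites in both, so their number there is a description with no test. TCCAGTCC was at 6 sites (13.6%, against 0.673% of windows of 120 bases in all promoters), and GGCGAATC at 5 (11.4%, against 0.0957%), as was the overlapping GCGAATCT. The word CCGGAGCG was also at 5 sites (11.4%, against 0.80%) and is not described further. Windows in all promoters were taken at a fixed place before the start, not at a summit, so the positions compared differ. At these 5 sites GGCGAATC lay within 25 bp of the summit, taken from repeat 1 where both summits were in the window. The search kept only words within 60 bases, so closeness was in part set by it. Further matches in shared windows lay 114.5 bp from the summit at Fbxo8 and 172.5 bp at Gm4925. The stretches below are 30 bases each in the direction of the word, which is in capitals, from Timm22 (chr11:76407093-76407122), Snrnp35 (chr5:124483111-124483140), Sfswap (chr5:129501166-129501195), Brpf1 (chr6:113306952-113306981) and Ppp1r37 (chr7:19562391-19562420) in both repeats and Tmem42 (chr9:123021276-123021305) in repeat 2 only, with Brpf1 and Tmem42 on the minus strand.
Timm22: ttcttcagtgtGGCGAATCtgccgttgtcg
Snrnp35: gacgacgtcgtGGCGAATCtgctgctgccg
Sfswap: cttgcggacgtGGCGAATCtaccactctca
Brpf1: gggccgtttgtGGCGAATCtgcgactacgg
Ppp1r37: gaaacgtgaccGGCGAATCtgcagagccaa
Tmem42: caggcgagtgaGGCGAATCtgctgcagtgg
For TCCAGTCC the stretches are from Agap2 (chr10:127078777-127078806, plus strand) and, on the minus strand, Trim41 (chr11:48817489-48817518), Plch1 (chr3:63899525-63899554), Arid1a (chr4:133756876-133756905) and Tmem121b (chr6:120494047-120494076), all in both repeats, where the word lay 0.5 to 12.5 bp from the summit. At Arid1a the summit used, 8.5 bp from the word, was that of repeat 2, and the repeat 1 summit lay outside the promoter window. The sixth site, Fzd1, had it 51.5 bp away, and further matches in shared windows lay 24.5 bp away at Agap2, 72.5 bp away at Prickle1 and 159.5 bp away at Tmem121b. Some of these sites had weak peaks. Near an end of Fzd1 the −log10 q was 0.609 in repeat 1 and 0.001 in repeat 2, and near Trim41 it was 0 and 11.9. It was 4.62 and 13.7 near Plch1, 14.3 and 51.6 near Arid1a, and 13.1 and 49.5 near Tmem121b.
Agap2: gtaccaggaaaTCCAGTCCaggttttggga
Trim41: gagcctttcgcTCCAGTCCcagccggtttc
Plch1: ctcgatggcgcTCCAGTCCactcgcgcgcg
Arid1a: ccggccccggaTCCAGTCCacttttgccga
Tmem121b: tctccctcgaaTCCAGTCCtggtttccccg
The repeat 2 only windows had no part in choosing the words. Those with a −log10 q of at least 2 held GGCGAATC in 2 of 144 (1.39%) and TCCAGTCC in 3 of 144 (2.08%), against 0.249% and 1.69% of all windows of 300 bases. The 560 with a lower q held them in 1 (0.179%) and 12 (2.14%). The 2 GGCGAATC matches in the 144, at Tmem42 and Dolpp1, lay 24.5 and 28.5 bp from the summit. The 3 TCCAGTCC matches, at Unc5a, Rbpj and Arrdc4, lay 94.5 to 120.5 bp away.

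The gene lists were drawn up with earlier results of these data known. Among them, SWI/SNF subunits had the most members with a summit near an end in both repeats. These were 5 of 25 (20%), beside 0.523% of all protein-coding genes. Smarce1 is given above, Arid1a had folds of 10.0 and 11.7, Smarcd2 6.36 and 15.1, Bcl7c 7.40 and 6.12, and Smarcc2 4.98 and 4.25, the last at the same peaks as the serine tRNA gene n-TScga2. The peaks of Smarcd2 were also those of the neighbouring gene Tcam1. A further 7 members, among them Arid1b with a fold of 5.97, had a summit in repeat 2 only, so that 12 of 25 were marked in repeat 2, beside 17.4% of all protein-coding genes. Kinetochore genes had 2 of 28, Cenpu and Knl1 (6.24 and 3.53, at the same peaks as the serine tRNA gene n-TSgct7), and Integrator 1 of 14, Ints10.

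The genes of the RNA polymerase III and ribosome machinery were marked in repeat 2 in shares of 12.8% to 28.9% by list, beside 17.4% of all protein-coding genes, and in both repeats in 0 or 1 gene a list, beside 0.523%. Of 24 RNA polymerase I and III subunits 1 was marked in both repeats, Polr1d, with folds of 5.17 and 3.52, and 3 in repeat 2 only, Polr2h, Polr3e and Polr3c. The peaks of Polr1d were also those of the neighbouring gene Lnx2. Of 24 transcription factors of these polymerases, 38 tRNA synthetases, 78 mitochondrial ribosomal proteins and 38 ribosome biogenesis genes none was marked in both repeats, with 5, 11, 12 and 8 in repeat 2 only. Elp2, of the Elongator complex that modifies tRNAs, was the 1 of 40 tRNA modification genes, with 4.5 and 4.71, at the same peaks as the neighbouring gene Slc39a6.

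Some protein-coding calls were the same peaks as small RNA calls. Rps29, the 1 of 78 ribosomal protein genes, had the folds of Rn7s1 (3.42 and 2.38), and Psma3, 1 of 2 proteasome genes of 38, had those of n-TKctt17. H4c8, the 1 of 67 histone genes, had those of the methionine tRNA gene n-TMcat9 (4.85 and 4.93). Psmc3, the other proteasome gene, had 6.82 and 5.72 and no tRNA gene at its summit. Of 28 Mediator, 37 spliceosome and 35 cell cycle genes none was marked in both. Of 1100 olfactory receptor genes 0 were marked in both and 9 (0.818%) in repeat 2 only. All protein-coding genes had 0.523% in both and 17.4% in repeat 2.

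Cell type markers could not check the label, because a polymerase subunit on a gene end is not a measure of expression. None of the neural progenitor, neuronal, astrocyte, oligodendrocyte, microglia and endothelial markers was marked in both repeats, beside 0.523% of all protein-coding genes, and in repeat 2 each of these lists had at most 1 marked gene, beside 17.4%.

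Of the 8 highest repeat 2 only peaks, 6 were at protein-coding genes. Gpcpd1 had a fold of 20.5, Sgms1, a sphingomyelin synthase gene, 19.5, Odc1, the first enzyme of polyamine synthesis, 19.2, and Kmt2a, a histone methyltransferase, 18.7. Ptp4a1 had 16.8, the stretch between Arsg and Slc16a6 14.2, the long non-coding RNAs Gm36860 and Gm36914 13.3, and a site on chromosome 11 (49764515 to 49764911) at no gene 12.9. Each of these 8 had a −log10 q between 40 and 96.2 in repeat 2 and no overlapping peak in repeat 1. Sgms1 also had other peaks, with a summit near an end in both repeats and folds of 4.21 and 6.94.

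Peaks of the other proteins covered part of the same positions. Broad peaks of Mgea5 overlapped 69.8% and 60.1% (repeats 1 and 2 of Mgea5) of the repeat 1 Polr1c peaks in both, and those of Panx2 35.4% and 60.4%, while these lists covered 14.3%, 11.2%, 4.97% and 12.7% of the chromosomes. Coverage counts bases and overlap counts peaks that share at least 1 bp, so coverage is not an expected share. Wider peaks overlap more readily, and median widths were 387 bp for these peaks, 284.5 bp in repeat 1 only and 188 bp in repeat 2 only. For repeat 1 only peaks the shares were 37.8%, 33.2%, 27.9% and 28.3%, and for repeat 2 only peaks 48.7%, 33.0%, 6.81% and 49.2%. When only broad peaks with a −log10 q of at least 2 counted, 106, 106, 11 and 348 per list, the shares were 16.2%, 13.0%, 10.4% and 19.5% for peaks in both and 0 to 0.664% for repeat 1 only peaks. These broad peaks covered 0.0062%, 0.0053%, 0.0016% and 0.0117% of the chromosomes. The 10.4% for repeat 1 of Panx2 was 32 Polr1c peaks under at most 11 broad peaks. For the 1031 repeat 2 only peaks with a −log10 q of at least 2 they were 4.37%, 3.49%, 1.65% and 5.82%, and with all broad peaks counted 67.0%, 43.8%, 12.4% and 75.5%.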

How the data were processed

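Chromatin from cultured neural progenitors was immunoprecipitated and sequenced. Trim Galore, the aligner Bowtie2 2.3.5, the peak caller MACS3 3.0.0a5 and the build mm10 were used, per the submitters' processing notes. The cut-offs, the control library, the number of reads and the handling of multiply mapped reads were not given in the sources used here. Deposited columns hold a fold (ratio of signal to background), a −log10 p, a −log10 q and the offset of the summit, as the authors' caller wrote them. The broad lists of Mgea5 and Panx2 were used only for overlaps. With depth unknown, no precision from reads is given.

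Peaks were compared with Python 3.11.15, pandas 2.3.3, NumPy 2.4.6, SciPy 1.17.1, NetworkX 3.6.1 and Matplotlib 3.10.9, and the interval steps were tested on simulated data. Overlapping peaks were joined into regions, and each region takes its highest fold per repeat. Genes, starts and promoter sequence came from RefSeq GRCm38.p6, and promoters of chromosome 18 were not used here. No test was run: shares are descriptions, and the binomial interval is exact at the 95% level.

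Genes were named by rule: the 12 highest regions in both, 6 in repeat 1 only and 8 in repeat 2 only, 5 tRNA genes, each singly named RNA polymerase III gene, 3 regions of most unequal fold each way, up to 3 genes per list and the miR-9 genes. Genes printed with words, or in lists beyond this, were chosen after their values were seen. The members and lists were chosen with earlier results of these data known, and the word search was added after seeing the data. Alternatives changed the overlap rule, the q threshold, the list length, the chromosomes and the windows.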

Additional observations from a re-analysis of the deposited data

How the results depend on the processing

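The number of regions in both was 216 with a reciprocal overlap of 50%, 278 with summits within 250 bp and 317 with chromosomes X and Y added. It moved to 177 and 118 when peaks needed a −log10 q of at least 2 and 5 in their own list, and to 136 with repeat 2 cut to the length of repeat 1. The share of repeat 1 peaks in both was 28.4% with the reciprocal overlap, 36.6% by summits, 87.3% and 82.8% at the q of 2 and 5, and 17.9% with repeat 2 cut. Regions at tRNA genes made up 16.9% at the q of 5, and 24.3% to 29.4% under the other settings tried (q of 2, repeat 2 cut, X and Y added, windows of 0 and 500 bp). Regions at protein-coding gene ends made up 32.2% at the q of 5, 49.3% with repeat 2 cut and 31.3% with a window of 2500 bp. The cause of these moves was not tested beyond the settings' own construction, which leaves fewer peaks or a wider window. The run at the start of chromosome 9 had q values above both thresholds, so it weighs on the shares given at them. In 1 repeat alone the marked share of tRNA genes ranged from 26.9% to 36.3%, and that of protein-coding gene ends from 0.595% to 17.4%. The median summit distance was 21.0 bp at the q of 2. Read depth is unknown, so peaks missing from the shorter list cannot be told apart from peaks below detection in it. No paired analysis was possible because the report compares the 2 repeats of 1 group and runs no test between groups.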
